A study of Mus musculus with 8 samples.

Results

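Collagen genes were chosen by name: every row of the deposited table whose symbol reads Col, a type number, a and a chain number was taken, which gave 41 of 17911 genes. They cover 25 collagen types and were grouped by type into 11 fibrillar genes, 6 basement membrane genes (type IV), 8 FACIT genes (fibril-associated collagens with interrupted triple helices) and 16 others. Col6a4, Col10a1 and Col19a1 are annotated in the mouse genome and fit the rule but were not analysed here. RNA was sequenced from single whole hearts of wild-type C57Bl6/J mice, 4 female and 4 male, with no treatment named. They are labelled adult, and the stated age is 4 weeks or, elsewhere in the labels, 4 to 6 weeks. Nothing but sex is named as differing between the groups, and 1 batch label covers all 8 hearts. The protocol describes extraction of small RNA with the miRVANA kit, while the molecule is labelled total RNA. The 8 hearts were separate animals, numbered 1 to 4 in females and 1, 3, 4 and 5 in males.

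Collagens are the main structural proteins of the extracellular matrix. Each molecule winds 3 chains into a rope-like helix, which needs a glycine at the first place of every Gly-X-Y triplet because no other residue fits at the centre. Fibrillar collagens assemble into the cables that give the heart wall its tensile strength, type IV forms the sheet-like network of basement membranes around muscle cells and vessels, and FACIT collagens sit on the surface of fibrils. In the heart, fibrillar collagens are made mainly by fibroblasts, and type IV also by endothelial and mural cells.

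The repeat can be read in the coding sequence, and 60 bases of 6 genes are shown because their helix plans differ and because these genes carry the levels or sex differences described below. The sequences are from the longest coding sequence of each gene in GENCODE vM21 (mm10), run 5′ to 3′, and show every in-frame glycine codon (GGN) in capitals. For Col1a1, Col27a1, Col14a1 and Col8a2 the stretch is the first 20 codons of the longest unbroken run of triplets. For Col4a1 and Col4a3 it is the last 12 codons of the longest run and the next 8, so that the break is visible.
Col1a1: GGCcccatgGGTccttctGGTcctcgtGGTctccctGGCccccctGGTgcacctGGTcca
Col27a1: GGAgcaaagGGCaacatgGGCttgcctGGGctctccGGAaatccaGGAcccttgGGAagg
Col14a1: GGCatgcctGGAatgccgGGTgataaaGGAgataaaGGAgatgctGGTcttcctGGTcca
Col8a2: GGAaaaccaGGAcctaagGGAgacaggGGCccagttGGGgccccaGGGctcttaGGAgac
Col4a1: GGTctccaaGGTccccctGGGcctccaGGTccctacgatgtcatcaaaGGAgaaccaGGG
Col4a3: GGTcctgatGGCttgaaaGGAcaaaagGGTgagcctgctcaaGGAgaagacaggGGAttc
In the first 4 lines a capital codon opens each triplet to the end of the stretch. In Col4a1 and Col4a3 the triplet that follows the fourth capital codon is not followed at once by another glycine codon, and the even spacing is lost.

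Counted over the whole coding sequence, most fibrillar genes held 1 long unbroken run of triplets, and in type IV genes the repeat was broken into many shorter runs. The longest unbroken run in the 11 fibrillar genes was 216 to 344 triplets (median 338), with Col24a1 (216) and Col27a1 (217) shorter than the other 9. Col24a1 and Col27a1 held 327 and 329 triplets in 3 runs each, so more of their repeat lay outside the longest run. The 6 type IV genes had longest runs of 39 to 66 triplets and 22 to 27 separate runs of at least 4 triplets. Such runs together covered 74.9 to 78.8% of the codons of type IV genes and 53.5 to 77.2% of those of fibrillar genes. FACIT genes ranged from 32 triplets in Col12a1, Col14a1 and Col20a1 to 113 in Col9a1, Col9a2, Col9a3 and Col22a1. Glycine codons also differed in spelling: GGT made up 50.6% of the glycine codons of Col1a1 and 49.9% of those of Col1a2, the chains of type I collagen, but 16.0% of those of Col27a1 and 16.1% of those of Col4a2.

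**Figure D1:**
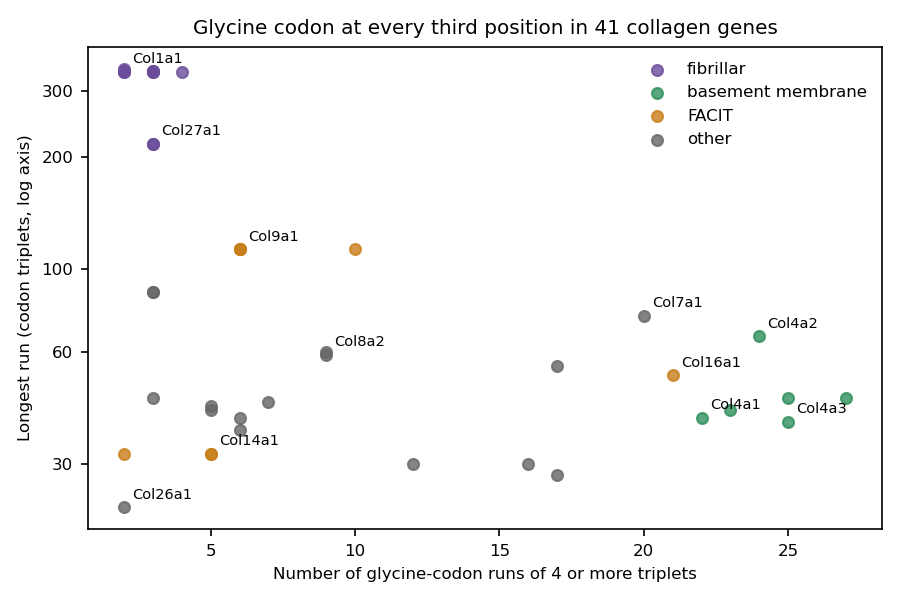
The number of runs with a glycine codon opening each of at least 4 triplets (x axis) is plotted against the length of the longest run in triplets (y axis, log scale), 1 point per collagen gene and 1 colour per class. Fibrillar genes lie at 2 to 4 runs with a longest run of 216 to 344 triplets, and type IV genes at 22 to 27 runs with a longest run of 39 to 66.

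Levels were compared between genes as the normalized read count per kb of exon, because longer transcripts yield more reads. Basement membrane genes led: Col4a1 had 4302 ± 554 normalized counts per kb and Col4a2 4038 ± 389 (mean ± SD over 8 hearts). Col3a1, the chain of type III collagen found in compliant tissue, followed at 2333 ± 343 per kb. Next came Col6a1, a chain of the beaded filaments that surround cells (1977 ± 147), Col1a1 (1618 ± 81.6) and Col15a1, a collagen of the basement membrane zone of muscle and capillaries (1402 ± 110). The per-kb levels of Col4a1 and Col4a2 overlapped across hearts, while the mean of Col3a1 lay more than 1 SD of either gene below Col4a2. That gap depends on the length used: per kb of longest annotated transcript Col4a2 had 4144 and Col3a1 4116. The 6 genes together gave 73.8% ± 0.810 of the summed per-kb level of all 41 genes, and all 41 made up 0.248% ± 0.0242 of all normalized counts (SD, n = 8). At the other end stood Col24a1 at 1.66 per kb, Col17a1, a hemidesmosome collagen of epithelia, at 1.80 and Col6a5 at 2.31.

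By class, the basement membrane genes held 42.7% ± 1.68 of the summed per-kb level, the fibrillar genes 29.9% ± 0.647, the other genes 25.0% ± 1.04 and the FACIT genes 2.40% ± 0.301 (SD, n = 8). Lengths were the union of annotated exons. With the longest annotated transcript as length the fibrillar share was 36.8% and the basement membrane share 36.2%, so the order of these classes turned, while Col4a1, Col4a2 and Col3a1 stayed the highest genes. Part of the move sits in Col1a2, a type I chain whose annotated exons add up to 12.426 kb against a longest transcript of 5348 bases. Col1a2 had 1055 per kb of exon and 2450 per kb of longest transcript. By the latter it moved from rank 7 to rank 4 of the collagen genes, and Col15a1 from rank 6 to rank 7.

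Fibrillar genes ran from 1.66 per kb in Col24a1 to 2333 in Col3a1. Besides types I and III, the fibril-nucleating type V chains Col5a1 (521 per kb), Col5a3 (395) and Col5a2 (336) were at intermediate level. The cartilage collagen Col2a1 had 26.2, 48.5, 90.5 and 48.7 normalized counts in female replicates 1 to 4 and 59.5, 43.9, 34.1 and 77.2 in male replicates 1, 3, 4 and 5. Its partner in cartilage fibrils, Col11a1, had 37.8, 47.5, 108 and 67.0 in females and 73.2, 52.5, 23.0 and 37.4 in males. Both were highest in female 3, and both sexes overlapped. Col11a2, the other type XI chain, was higher and steadier, between 239 and 291 in every heart. The cartilage marker genes Comp, Sox9, Cnmd, Hapln1 and Acan were in the table, at 705, 206, 52.5, 37.8 and 14.2 normalized counts on average, and Matn1, Matn3 and Snorc were not analysed here. The measured cartilage markers summed to 963 in female 3, the lowest of the females (963 to 1265), against 886 to 1017 in males. The part of cartilage-type cells in these levels was not tested.

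Among the FACIT genes, Col14a1, which binds fibril surfaces in skin, tendon and heart, stood at 310 ± 47.7 per kb of a summed FACIT level of 507 ± 51.4 per kb (SD, n = 8). Col16a1 followed at 119, then Col20a1 at 27.6 and Col12a1, which is close kin to Col14a1, at 17.4. The type IX chains of cartilage were low: Col9a2 had 13.3, Col9a3 10.1 and Col9a1 3.92 per kb. Among the others, type VI chains were unequal, with Col6a2 at 983, Col6a3 at 328, Col6a6 at 98.6 and Col6a5 at 2.31 per kb. Col8a1, a short-chain collagen of vessel walls, stood at 197, and Col18a1, whose end fragment is endostatin, at 166. Col7a1, the anchoring fibril collagen of skin, had 10.4. The skin markers Krt5, Krt1 and Dsc3 were not analysed here, while Krt10, Trp63 and Krt14 averaged 206, 47.9 and 19.6 normalized counts.

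**Figure D2:**
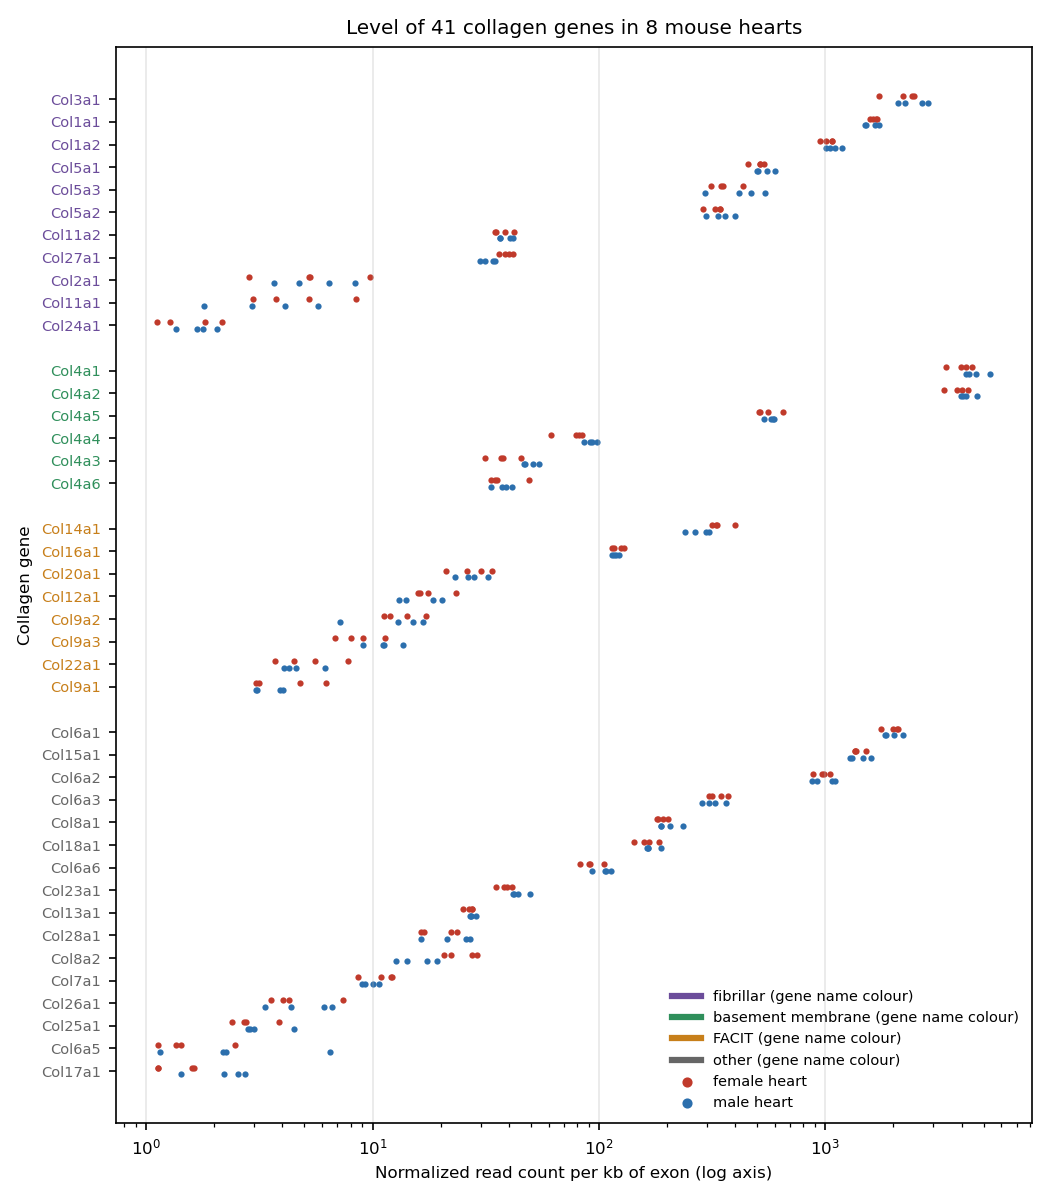
Normalized read count per kb of exon (x axis, log scale) of the 41 collagen genes (y axis), 1 point per heart, red for female and blue for male, with gene names coloured by class (purple fibrillar, green basement membrane, orange FACIT, grey other). Within each class genes run from the highest to the lowest mean, from Col4a1 at 4302 to Col24a1 at 1.66.

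Collagen molecules need matched chains, and most partner chains tracked each other from heart to heart. Col4a1 and Col4a2, which assemble as 2 chains to 1 in the main basement membrane network, had a per-kb ratio of 1.06 ± 0.0433 (SD, n = 8). The ratio varied by a coefficient of variation of 4.07%, against 12.9% for Col4a1 and 9.63% for Col4a2 alone. Col6a1 to Col6a2 had a ratio of 2.02 with a coefficient of 3.90%, and Col5a1 to Col5a2 had 1.56 with 4.16%. Col6a3 to Col6a1 had 0.166 with 4.65%, and Col4a3 to Col4a4, partners in another type IV network, had 0.517 with 7.03%. In each of these 5 pairs the ratio varied less than either chain. For Col4a5 to Col4a6 (15.2 with 14.5%) and Col8a1 to Col8a2 (10.5 with 34.5%) it varied more than either chain. For Col1a1 to Col1a2 (1.54 with 5.19%) it lay between them. Col3a1 to Col1a1, which share fibrils but no molecule, had 1.44 with 11.6%, and no other pair of this kind was read. Male 3 was the highest heart for 14 of 41 collagen genes, partners or not. Whether chains that do not assemble together track as closely was not tested.

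The sexes did not overlap in the ratios of Col1a1 to Col1a2 and of Col8a1 to Col8a2, and overlapped in the other 7. No share over other gene pairs was computed to set beside this count. Type I collagen contains 2 Col1a1 chains and 1 Col1a2 chain. Its ratio was 1.57, 1.61, 1.66 and 1.57 in female replicates 1 to 4 and 1.495, 1.44, 1.51 and 1.43 in the males, so all 4 females lay above all 4 males by a narrow gap. The means were 1.603 ± 0.0419 and 1.47 ± 0.0388 (SD, n = 4 each). With the longest transcript as length the mean ratio of type I chains was 0.732 in place of 1.54, so which chain is the more abundant depends on the length used. The sex difference within the ratio does not depend on the length, which is the same in both sexes. The Col8a1 to Col8a2 ratio was 7.73 ± 1.10 in females and 13.3 ± 2.98 in males. Col8a2 by itself did not overlap between the sexes, while Col8a1 did. This ratio is therefore not separate from the difference of Col8a2 itself. No test was run on the ratios.

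**Figure D3:**
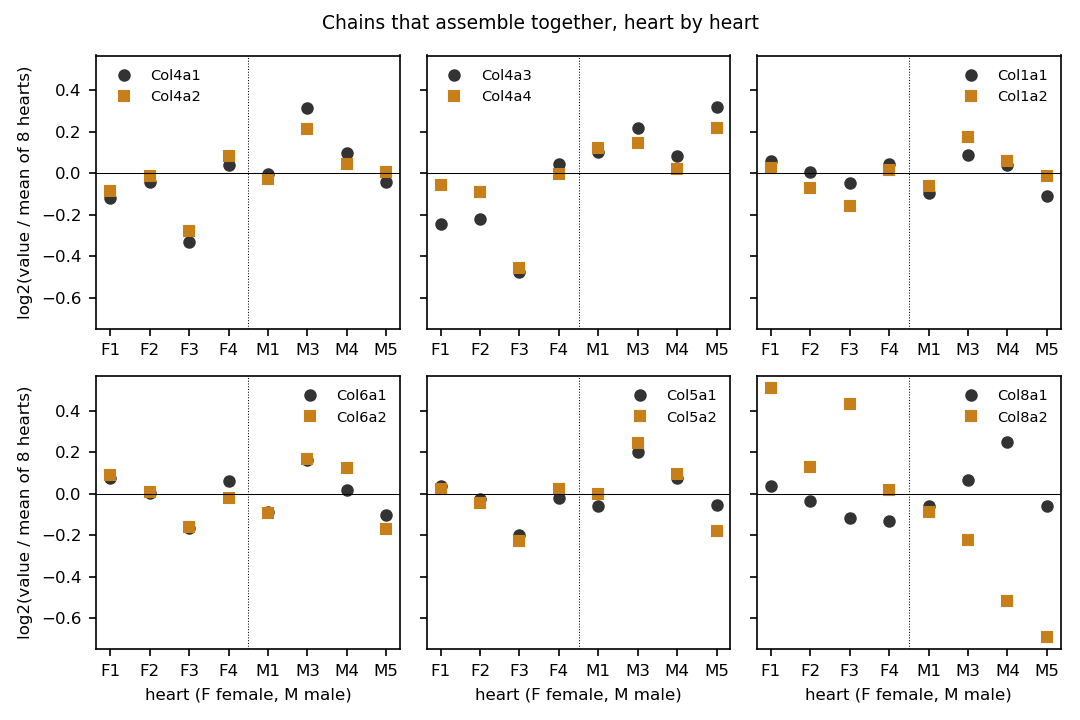
For 6 pairs of partner chains, each heart's normalized count is plotted as log2 of its ratio to the mean of the 8 hearts (y axis), with female hearts F1 to F4 left and male hearts M1 to M5 right of the dotted line. The marks of Col4a1 and Col4a2, and of Col6a1 and Col6a2, lie close together in most hearts. Those of Col8a1 and Col8a2 lie on opposite sides of the mean save in F1, M1 and M5.

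Type IV genes lie in pairs that are read in opposite directions from adjoining starts, and the sequence between or shared by the starts is shown for the pairs whose levels moved together. Sequence and starts of Col4a4 and Col4a1 are RefSeq's (GRCm38.p6, the assembly of mm10), and the starts of the partners are GENCODE's. Col4a4 and Col4a3 start 72 bases apart on chromosome 1, and the 71 bases between them, chr1:82586850-82586920 on the minus strand, have a GC content of 69.0%. Col4a1 and Col4a2 start 21 bases apart on chromosome 8, where their first exons overlap by the 22 bases chr8:11312805-11312826, shown on the minus strand. Capitals mark the reverse complement of the GC box GGGCGG, a motif bound by Sp1-type factors.
Col4a4-Col4a3: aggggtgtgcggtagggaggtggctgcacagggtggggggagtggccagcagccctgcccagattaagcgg
Col4a1-Col4a2: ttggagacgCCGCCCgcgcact
The stretch between Col4a4 and Col4a3 held neither GGGCGG nor CCAAT on either strand. Promoter windows of 300 bases were at hand for 32 of the 41 genes, 35 windows in all. GGGCGG was found on either strand in 62.9% of them and in 35.7% of the 32851 windows of all genes, CCAAT in 34.3% against 37.4%, and TATAAA in 11.4% against 13.6%. Of the 6 most abundant genes, Col3a1 had a TATAAA, at position -117 from its start, and Col1a1 had no window. These are matches of letters, and none of the motifs contains another. Col4a5 and Col4a6, also in opposite directions, start 1309 bases apart on chromosome X, and the tandem genes Col6a1 and Col6a2 102538 bases apart.

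No collagen gene passed the main test between female and male hearts, and the values that separated the sexes belonged to minor collagens. In that test, limma on log2(value + 1) with Benjamini-Hochberg adjustment over all genes, 0 of 41 collagen genes passed an adjusted p of 0.05, against 1.16% of the 17911 genes tested. The smallest adjusted p among them was 0.0816. At an unadjusted p under 0.05 there were 7 (17.1%), 3 higher and 4 lower in females, close to the 16.0% of all genes. edgeR's quasi-likelihood test also passed 0 of 41, against 1.21% of all genes. DESeq2 passed 4 of the 32 collagen genes to which it gave an adjusted p (12.5%, against 4.90% of all genes). The authors' deposited table differed from these DESeq2 results by at most 0.00025 in log2 fold change and 0.0027 in adjusted p, so it is not a separate test. That table passed the same 4 of 32 (12.5%, against 4.90% of all genes): Col14a1, Col27a1 and Col8a2 higher and Col4a3 lower in females. In 6 genes (14.6%, against 9.35% of all genes) the values of the sexes did not overlap, namely these 4 with Col4a4 and Col23a1.

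Col4a3, a chain of the type IV network of the kidney filter and other specialised basement membranes, lies on chromosome 1 (82586921 to 82722059, plus strand, mm10). It had normalized read counts of 369, 374, 314 and 451 in female replicates 1 to 4 and of 469, 509, 463 and 544 in male replicates 1, 3, 4 and 5. Every female heart was below every male heart, with female 4 just under the lowest male. The log2 fold change, female minus male, was -0.40 (SE 0.10, limma adjusted p = 0.0816), and the authors' deposited table gives an adjusted p of 0.010. In this gene 5.65% of the exon bases overlap C430014B12Rik on the opposite strand, and whether reads were counted by strand is not given in the sources used here. Its partner Col4a4 (82448423 to 82586849, minus strand) had 863, 842, 653 and 893 in females and 974, 991, 910 and 1041 in males. It was named after its values were seen, because the sexes did not overlap, and had a log2 fold change of -0.28 (limma adjusted p = 0.170). Female 3 was the lowest heart for both chains.

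Col8a2, the partner of Col8a1 in the hexagonal lattice of type VIII collagen, lies on chromosome 4 (126286793 to 126314330, plus strand). Its normalized counts were 130, 99.9, 124 and 92.6 in females and 86.0, 78.3, 63.9 and 56.7 in males. The lowest female was just above the highest male. Its log2 fold change of 0.64 (SE 0.17, 95% interval 0.28 to 1.00, limma adjusted p = 0.0881) corresponded to a ratio of 1.56, and the authors' deposited table gives an adjusted p of 0.022. Its more abundant partner Col8a1 averaged 1478 ± 79.9 in the female and 1602 ± 167 in the male hearts (SD, n = 4), which overlapped.

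Col14a1 lies on chromosome 15 (55307750 to 55520803, plus strand) and was the most abundant of the genes without overlap. Its normalized counts were 2792, 2329, 2204 and 2306 in females and 1855, 2084, 2155 and 1675 in males. Female 1 was far above the rest, and female 3 was just above the highest male. The log2 fold change was 0.31 (SE 0.10, limma adjusted p = 0.164), and the authors' deposited table gives an adjusted p of 0.020. The other FACIT genes were in the same direction save for Col9a3: 7 of 8 had a positive and 1 a negative log2 fold change (median 0.13). Of the positive values, those of Col20a1 and Col16a1 were only 0.00 and 0.04. The FACIT share of the summed per-kb level was 2.65% ± 0.190 in the female and 2.16% ± 0.103 in the male hearts (SD, n = 4), without overlap and with no test. Col14a1 made up most of the FACIT sum, at 343 of 543 per kb in females and 277 of 471 in males. The share is therefore not separate from the difference of Col14a1 itself.

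Col27a1, a fibrillar collagen with a short helix best known from cartilage, lies on chromosome 4 (63214004 to 63334991, plus strand). Its normalized counts were 502, 472, 524 and 544 in females and 454, 408, 388 and 443 in males. All 4 females were above all 4 males. The log2 fold change was 0.27 (SE 0.07, limma adjusted p = 0.0943), and the authors' deposited table gives an adjusted p of 0.031. Col23a1, a transmembrane collagen named after its values were seen, had 225, 201, 218 and 236 in females and 253, 239, 285 and 243 in males. It was lower in every female, with a log2 fold change of -0.21 (limma adjusted p = 0.277).

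**Figure D4:**
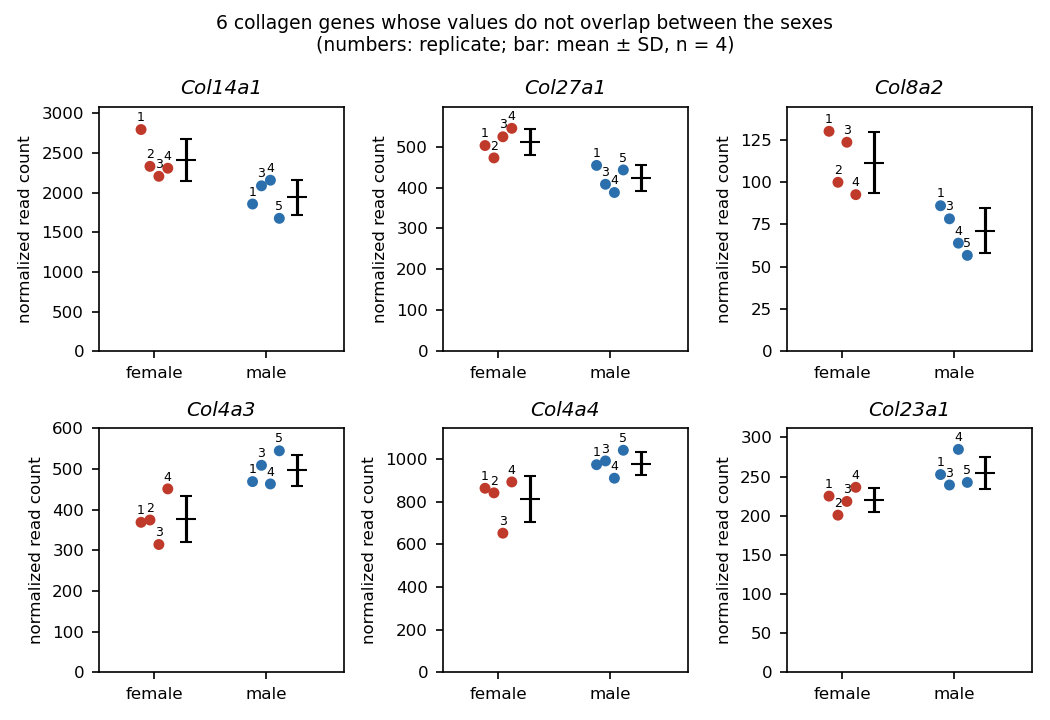
Normalized read counts (y axis from 0) of the 6 collagen genes whose values do not overlap between the sexes, 1 point per heart with its replicate number, and the mean with SD (n = 4) beside each group. Col14a1, Col27a1 and Col8a2 are higher and Col4a3, Col4a4 and Col23a1 lower in all 4 females.

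The abundant collagens overlapped between the sexes and did not pass the test. Col4a1 had 29559, 31191, 25524 and 33025 normalized counts in females and 32027, 39980, 34418 and 31180 in males. Female 3 was lowest and male 3 highest, and the sexes overlapped (log2 fold change -0.21, 95% interval -0.44 to 0.03, limma adjusted p = 0.370). Col4a2 had 25224, 26525, 22025 and 28366 in females and 26255, 31011, 27546 and 26870 in males, with the same hearts at the ends (log2 fold change -0.13, limma adjusted p = 0.471). Col3a1 had 24277, 21684, 16970 and 23680 in females and 22134, 27780, 26111 and 20578 in males. Here too female 3 was lowest and male 3 highest (log2 fold change -0.16, 95% interval -0.51 to 0.19, limma adjusted p = 0.662). Col1a1 had 11068, 10652, 10289 and 10968 in females and 9929, 11271, 10901 and 9847 in males, a narrow range (log2 fold change 0.04, 95% interval -0.06 to 0.14, limma adjusted p = 0.754). Col6a1 and Col15a1 had log2 fold changes of -0.00 and -0.01 (limma adjusted p = 0.988 and 0.946), with intervals of -0.16 to 0.15 and -0.17 to 0.14, and the sign of both changed when single hearts were left out. In whole hearts, fewer cells of a type and less RNA per cell cannot be told apart.

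Some scarce collagens had wide fold changes with wide errors. Col6a5 had 23.3, 10.7, 12.8 and 13.4 normalized counts in females and 61.3, 20.7, 21.3 and 10.9 in males. Male 1 was high and the sexes overlapped (log2 fold change -0.67, SE 0.45, limma adjusted p = 0.519). Without male 1 the value was -0.22. Col17a1 had 6.79, 6.79, 9.58 and 9.74 in females and 16.5, 8.61, 15.3 and 13.3 in males, overlapping through male 3 (-0.63, SE 0.30, limma adjusted p = 0.338). Col11a1 (0.48, SE 0.40, limma adjusted p = 0.618) and Col9a1 (0.23, SE 0.27, limma adjusted p = 0.742) had the largest positive values among the genes that are neither called in the authors' deposited table nor among the 6 most abundant. The value of Col11a1 was -0.07 in the 5 hearts with the most reads.

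Log2 fold changes were negative for 27 and positive for 14 of the 41 genes, with a median of -0.07, while 8792 of all genes were negative and 9119 positive, with a median of 0.00. The basement membrane genes had 5 of 6 negative (median -0.17), the fibrillar genes 8 of 11 (median -0.09), and the others 13 of 16 (median -0.08), while the FACIT genes had 1 of 8. No class held a gene past the limma threshold, so the signs are a description, and no difference between classes was tested.

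**Figure D5:**
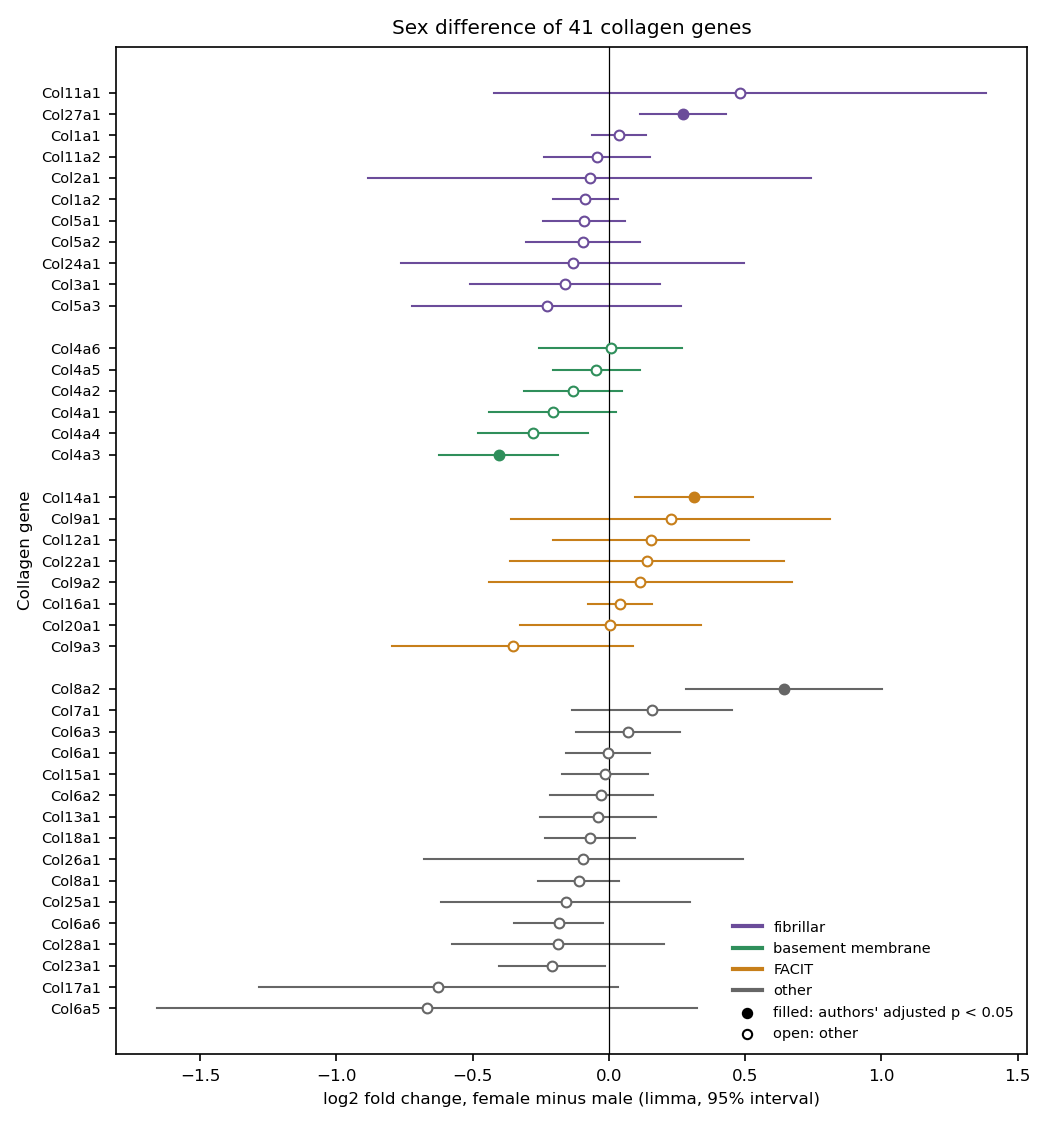
Log2 fold change, female minus male, with its 95% interval from limma (x axis) for the 41 collagen genes (y axis), ordered within each class and coloured by class, with filled points for the 4 genes at an adjusted p under 0.05 in the authors' deposited table. Col8a2 stands at 0.64, Col14a1 at 0.31, Col27a1 at 0.27 and Col4a3 at -0.40, and most other intervals include 0.

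The median coefficient of variation over 8 hearts was 13.3% for the collagen genes and 8.41% for all genes. It was 20.5% for FACIT genes, of which 4 of 8 had a mean under 100 counts. The lowest coefficients were those of Col13a1 (3.54%), Col16a1 (4.73%) and Col1a1 (5.05%), and the highest those of Col6a5 (76.8%), Col11a1 (47.6%) and Col2a1 (40.1%). Col13a1 had only 95 to 154 reads a heart, against 8160 to 13098 for Col1a1. At so few reads, counting error alone is larger than 3.54%, so this low value is no measure of steadiness. Male 3 was the highest heart for 14 of 41 genes (34.1%, against 12.3% of all genes) and the lowest for 0. Female 3 was the lowest for 12 of 41 (29.3%, against 14.7% of all genes), including 4 of the 6 type IV genes, and the highest for 6 (14.6%, against 13.9% of all genes), among them Col2a1, Col11a1, Col9a2 and Col12a1. The summed per-kb collagen level was 18128 in female 3 and 24576 in male 3, the lowest and the highest of the 8 hearts. Marker sums did not share this order across cell types. The endothelial sum was lowest in female 3 (75936 normalized counts) and highest in male 3 (90996). Without Fabp4 male 3 stayed the highest (59175), but the lowest heart was a male (50606). The fibroblast sum was 161961 in female 3 and 158023 in male 3, and the mural sum 82706 and 86464, with male 4 the lowest heart for both lists. Without Gsn, its most abundant gene, the fibroblast sum was lowest in female 3 (50410) and highest in male 4 (55380). Female 3 was also the lowest heart for the macrophage (12308), epicardial (2590) and adipocyte (2593) sums, but male 3 was not their highest. In the remaining lists another heart was the lowest. The part of these cells in the collagen levels was not tested.

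Genes that make, process, bind and degrade collagen were read from 6 lists, of which 53 genes were in the table. Of these, 0 passed the limma threshold upward and 1 downward, a share to set against the 1.16% of all genes. Of 15 hydroxylation and glycosylation genes, 8 chaperone and export genes, 8 propeptide removal genes, 8 receptor and uptake genes and 9 breakdown genes, 0 passed in either direction. Of the 5 crosslinking genes 1 passed. This was Lox, the lysyl oxidase that starts the covalent crosslinks of fibrils, at 337 ± 37.5 normalized counts in the female and 476 ± 34.1 in the male hearts (n = 4 each, ± SD). Its level fell in females by 0.50 on the log2 scale (SE 0.09, limma adjusted p = 0.0200). Its more abundant relative Loxl1 had 3662 ± 384 and 3933 ± 593 (limma adjusted p = 0.773). The most abundant member per kb of the other lists was P4hb, a subunit of prolyl hydroxylase (4948 per kb, log2 fold change 0.03), Sparc, a collagen-binding glycoprotein (7046, -0.24), Pcolce, an enhancer of propeptide cleavage (950, -0.04), Itgb1, the beta chain of collagen-binding integrins (7086, -0.04), and Timp2, a protease inhibitor (2558, 0.04). Serpinh1, the collagen chaperone Hsp47, had 15275 ± 467 in females and 16407 ± 1487 in males (limma adjusted p = 0.433).

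Hearts matched their labelled tissue, with the muscle genes Myh6, Tnnt2 and Actc1 at 2244069, 494987 and 534300 normalized counts on average. Some cell markers moved with sex beside the collagen differences. Of 8 fibroblast markers 6 had a positive log2 fold change and Lum rose in females by 0.30 (limma adjusted p = 0.00285). The summed fibroblast markers ran from 161961 to 175697 in females and from 153088 to 159731 in males. Most of that sum is Gsn, and without it the sums overlapped, at 50410 to 54665 in females and 51062 to 55380 in males. Dcn and Pi16 had negative log2 fold changes. All 7 macrophage markers had a negative log2 fold change, and Csf1r, C1qa and C1qb fell in females by 0.36, 0.41 and 0.39 (limma adjusted p = 0.0481, 0.0359 and 0.0493). Their sum ran from 12308 to 14433 in females and from 15365 to 18964 in males, and without Csf1r, the most abundant, from 9279 to 10794 and from 11448 to 14267. Of 7 endothelial, 8 mural, 6 smooth muscle, 6 epicardial, 6 Schwann, 5 cartilage, 3 skin and 6 adipocyte markers measured, 0 passed in limma. Of 6 cardiomyocyte markers Ryr2 passed, higher in females. The authors' deposited table also passed Gsn (adjusted p = 0.0042) and the cartilage marker Comp (0.025), higher in females. It further passed Actc1 (0.0064), C1qc (0.000503), Mrc1 (0.0071) and the cartilage marker Cnmd (0.019), lower in females. The adipocyte sum was 14018 in female 1 and 2593 to 5752 in the other 7 hearts. The part of these cells in the sex differences of Col14a1, Col27a1, Col8a2 and Col4a3 was not tested.

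Recovered reads of the 17911 genes ran from 51.7 to 75.7 M a heart, fewest in female 4, male 5 and female 3. The labels state over 80 M, which need not count the same reads, as the recovered sums hold only reads of these genes. With total reads as a covariate Col14a1 (adjusted p = 0.0317) and Col4a3 (adjusted p = 0.0370) passed in limma. Without female 4, Col4a3 passed (adjusted p = 0.0312).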

How the data were processed

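The deposited signal column of each heart holds reads scaled by the authors with a single size factor, as the values themselves show. The authors' own log2 fold changes and p-values, raw and adjusted, stand in the same deposited table. The submitters' processing notes name the build mm10. For aligner, counter, strandedness and test the sources used here name nothing, but DESeq2 on the recovered reads gave nearly the deposited fold changes and adjusted p. At a tolerance of 0.001 reads, 100% of the values were whole multiples of 1 read. The recovered whole reads summed to 51.7 to 75.7 M per heart. No gene in the table has under 81 reads summed over the hearts, and scarcer genes were not analysed here.

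The design named edgeR for counts and limma for normalized values. The values being normalized, the main test was limma 3.58.1 in R 4.3.3, with its trend and robust options, on log2(value + 1) for female minus male, without covariates and with all 8 hearts. Values had to reach 1 in at least 4 hearts; 0 genes failed this, so all 41 collagen genes were tested. The threshold was a Benjamini-Hochberg adjusted p of 0.05 over the 17911 genes. Fold changes on this scale understate those of low genes. edgeR 4.0.16 and DESeq2 1.42.0 were run on the recovered reads. DESeq2 gave no adjusted p for 3823 genes, 9 of them collagens, which stayed NA. Levels per kb divide the value by the union of GENCODE vM21 exons. SDs measure the spread between these hearts. The intervals, from limma, measure the uncertainty of the female minus male difference.

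The collagen genes, lists and markers were chosen with earlier results of these data known. Every collagen gene may be named by its level. Fold changes were printed for genes called in the authors' deposited table, the 6 highest per kb, and, of the rest, the 2 that differed most each way, and others are said to have been named after their values were seen. Of each pathway list, called genes and the highest were named, and Serpinh1 was added as the collagen chaperone after its values were seen. Alternatives were other tests, pseudocounts, filters, thresholds, lengths, a depth covariate, replicate blocks, the 5 hearts with the most reads, and leaving out each heart. Marker sums without their most abundant gene were added after seeing the data.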

Additional observations from a re-analysis of the deposited data

Results flagged for a closer look

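In each sex, 1 heart may stand apart from the other 3 by Dixon's criterion, which chance meets in about 1 of 20 groups. Among the 82 groups of the collagen genes 5 met it, and among all 108 groups, with ratios and class shares added, 8 did. Female 1 had 392 normalized counts of Col4a6 against 267 to 283 in the other females, 9641 of Col15a1 against 8550 to 8629, and a fibrillar share of 31.0% against 29.5 to 29.8%. Male 4 had 58.0 normalized counts of Col25a1, a transmembrane collagen of neurons, against 36.6 to 38.7 in the other males, and 131 of Col13a1 against 124 to 125. Both genes had few reads, 31 to 68 a heart for Col25a1 and 95 to 154 for Col13a1. Male 3 had 1316 of Col18a1 against 1147 to 1161. Female 4, the heart with the fewest reads, had a Col5a1 to Col5a2 ratio per kb of 1.51 against 1.57 to 1.58, and a Col6a1 to Col6a2 ratio of 2.12 against 1.99 to 2.01.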

How the results depend on the processing

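The main test called 208 genes, of which 0 were collagens. DESeq2 called 690 and 4 collagens, total reads as a covariate 153 and 2 collagens (Col14a1 and Col4a3), and the threshold stated in the labels, a log2 fold change over 0.6 in size with an unadjusted p under 0.05, 269 and 1 collagen (Col8a2). Leaving out each heart gave 77 (without female 2) to 516 (without male 5) called genes and 0 to 1 collagens, the 1 being Col4a3 without female 4. As deviations from the mean of their sex, same-numbered hearts correlated at 0.217, -0.0624 and -0.0886 by title number. By library code number the values were 0.217, -0.0624 and 0.179. Female 1 and male 1 were each other's best match. Male 5 was the best male for female 4, but female 3 was the best female for male 5. The other same-numbered hearts were not best matches, and whether the numbers pair the hearts was not settled. With a replicate block by title number 145 genes and 0 collagens were called, and by library code number 26 and 0. Over 19 settings each, the limma, edgeR or DESeq2 adjusted p ran from 0.0102 to 0.260 for Col4a3, 0.0201 to 0.394 for Col14a1, 0.0220 to 0.250 for Col8a2 and 0.0306 to 0.400 for Col27a1, with the direction the same in each. The sign turned for Col6a1 (leave-one-out -0.0368 to 0.0508, total reads 0.0352, the 5 hearts with the most reads 0.00971), for Col15a1 (leave-one-out -0.0586 to 0.0456, library code block 0.0159, total reads 0.0581) and for Col11a1 (-0.0739 in the 5 hearts). With the longest transcript as length the fibrillar share was 36.8%, the basement membrane share 36.2%, and the ratios were 0.732 for Col1a1 to Col1a2, 2.29 for Col3a1 to Col1a1, 1.09 for Col5a1 to Col5a2, 1.17 for Col4a1 to Col4a2, 0.574 for Col4a3 to Col4a4, 1.27 for Col6a1 to Col6a2, 0.184 for Col6a3 to Col6a1 and 15.5 for Col8a1 to Col8a2. These moves follow from the lengths; the cause of the others was not tested.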
